A study of Homo sapiens with 8 samples.

Results

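The genes described here encode the proteins of the mitochondrial ribosome. They were taken by name: the protein-coding genes of GENCODE release 29 whose symbol is MRPL or MRPS followed by a number. 78 of the 19864 protein-coding genes on the autosomes and X met this rule, 49 with MRPL symbols (large subunit) and 29 with MRPS symbols (small subunit). They lay on 21 chromosomes, with 8 on chromosome 17, and had 1 to 11 introns in the principal transcript (median 4).

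The mitochondrial ribosome translates the few messages encoded by mitochondrial DNA, all of them for membrane subunits of the respiratory chain and ATP synthase. Its proteins are encoded in the nucleus, made in the cytosol and imported. Some descend from bacterial ribosomal proteins and others are found only in mitochondria, and the symbols do not always match the structure: MRPS30 and MRPS18A carry small-subunit names but sit in the large subunit. SF3B1 is the part of the U2 snRNP that holds the branch point during 3′ splice site choice, and its K700E mutation is known to let the spliceosome use weak acceptors a short distance upstream of the normal ones.

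The libraries came from K562 cells, an erythroleukaemia line, with a modified SF3B1 allele under doxycycline (1 ug/ml in the protocol of every sample). There were 4 groups of 2 libraries: K700E at day 4, wild type (WT) at day 4, K700E at day 8 and WT at day 8. Total RNA was made into strand-specific libraries with the dUTP method. The files list, for each splice junction, the number of uniquely mapped reads that cross it, so the level of a gene here is its spliced reads scaled to library size by TMM (CPM), not its full read coverage. The labels do not say whether replicates were separate cultures or how the modified allele was built, so p-values measure only the spread between these libraries, which may be technical.

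Depth was 49338071 to 77750812 unique junction reads per library. SF3B1 itself stood at 720 and 704 CPM in K700E libraries and 755 and 656 CPM in WT libraries at day 4, a log2 difference of 0.03 (SE 0.12). Junction counts cannot tell the mutant from the normal allele, so this level does not check the labels. At day 8 acceptor use did not separate the labels, as the member genes show below. The second replicate of each label was high and the first low. The day 8 libraries are therefore named by label only ("the library labelled K700E"). The 2 libraries labelled WT at day 8 also listed fewer junctions (211347 and 278644) than the other 6 (375683 to 470900), and single-read junctions made up 0.463% and 0.992% of their annotated junctions, against 5.18% to 7.74% elsewhere. The most frequent read count of an annotated junction was 11 and 5 in those 2 libraries labelled WT, and 1 in each of the other 6. Whether reads there repeat the same molecules was not tested. If they do, intervals and limits for 0 reads are too narrow for those libraries. The labels call the cells epithelial. The 11 K562 markers summed to 1388 to 2192 CPM per library with 0 called at day 4 by edgeR (1 at an unadjusted p under 0.05), and the 7 epithelial markers to 488 to 2608 CPM. Of the epithelial ones KRT8 had 164 to 1029 CPM and KRT18 had 216 to 1192 CPM, while CDH1 and CLDN4 had at most 3 reads in any library.

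Levels of the members spanned a wide range. In unique reads scaled to library size without TMM (RPM) per intron of the principal transcript, the median member had 10.6 as its mean of the 8 libraries. MRPL37, a large-subunit protein specific to mitochondria, was highest at 27.3, followed by MRPS18B at 24.5, MRPS16 at 23 and MRPL51 at 21.9. The lowest were MRPL34 at 1.9, MRPL43 at 1.66, MRPL57 at 1.35 and MRPL36 at 0.315. MRPL37 had 29.5 and 34 RPM per intron in K700E libraries and 26.5 and 31.2 in WT libraries at day 4, and 22.8 and 27.7 in the libraries labelled K700E and 20.2 and 26.5 in those labelled WT at day 8. MRPS18B had 30.5 and 33.4 in K700E and 27.1 and 25.5 in WT libraries at day 4, and 18.2 and 22.7 in the libraries labelled K700E and 18.3 and 20.6 in those labelled WT at day 8, so the ranges of the 2 highest members overlapped. MRPL36, the counterpart of a bacterial protein that binds zinc, had 0.154 and 0.0911 in K700E and 0.312 and 0.299 in WT libraries at day 4, and 0.608 and 0.427 in the libraries labelled K700E and 0.366 and 0.261 in those labelled WT at day 8. Both K700E libraries were lower than the WT libraries at day 4 on this scale, and at day 8 both were higher.

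**Figure D1:**
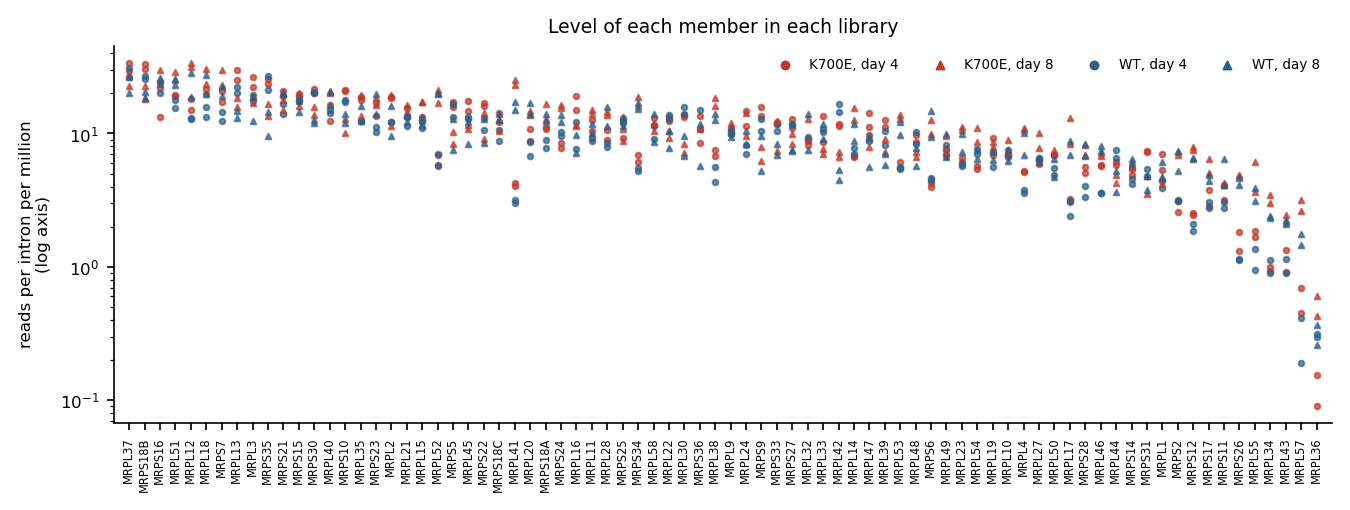
RPM per intron (log axis) of each member with reads in each of the 8 libraries, members ordered by their mean; circles are day 4, triangles day 8, red K700E and blue WT labels. Members run from MRPL37 at a mean of 27.3 to MRPL36 at 0.315, and several, among them MRPL41 and MRPL57, have their day 8 points apart from their day 4 points.

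Of the 78 members, 77 had reads over introns of their own. MRPL12, a protein of the large-subunit stalk, has none: each of its introns is also annotated in another gene. Another 6 members had under 50% of their reads in introns of their own, namely MRPL53 (1.09%), MRPL38 (8.82%), MRPL30 (10.6%), MRPS17 (14.4%), MRPS24 (20.2%) and MRPL46 (25.3%), and their levels rest on that fraction. For 68 members the share was above 95%.

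Summed over the members, the spliced level was 4369 and 4796 CPM in K700E libraries and 4031 and 4442 CPM in WT libraries at day 4. The libraries labelled K700E at day 8 summed to 3785 and 4095 CPM and those labelled WT to 3115 and 3811 CPM. The genotypes overlapped on both days. The group means were 4582 ± 302 (K700E) and 4236 ± 290 (WT) at day 4, and 3940 ± 219 (labelled K700E) and 3463 ± 492 (labelled WT) at day 8 (SD, n = 2 each), log2 ratios of 0.11 and 0.19 that were not tested. In bulk RNA a lower share of the cells and less RNA per cell cannot be told apart. By symbol, the small-subunit sum was 1335 to 1639 CPM in the 4 day 8 libraries and 1814 to 2092 CPM in the 4 day 4 libraries, with no overlap, while the large-subunit sums of 1780 to 2456 CPM on day 8 and 2217 to 2704 CPM on day 4 overlapped.

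**Figure D2:**
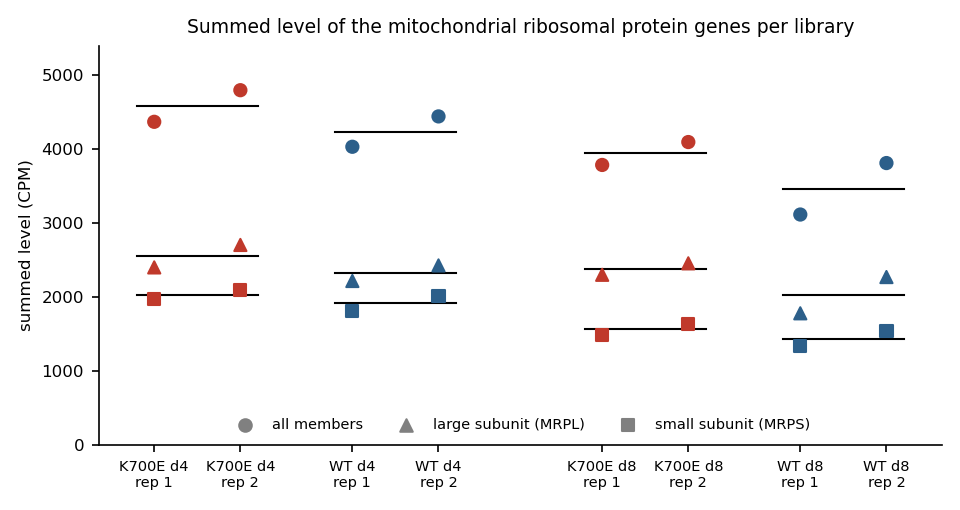
Summed CPM of the member genes in each library (circles), split into large-subunit (triangles) and small-subunit (squares) symbols; bars are group means of 2 libraries. K700E and WT libraries overlap in the total at day 4 (4369 and 4796 against 4031 and 4442) and at day 8.

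At day 4 the first question was whether the mutation changed the level of any member. None of the 76 members tested passed an adjusted p of 0.05 in edgeR's quasi-likelihood test, where 0.529% of the 13991 genes tested did; the lowest adjusted p among members was 0.114. DESeq2 called 3 members, all higher in K700E: MRPL2, MRPL24 and MRPL35; it called 11.7% of all genes. At an unadjusted p under 0.05, 10 members differed (8 higher and 2 lower), 13.2% of those tested against 21.3% of all genes. Changes leaned upward but were small: 49 of 76 were above 0, with a median log2 change of 0.16 against 0.02 over all genes. Without K700E replicate 2 the member median was 0.040 against 0.004 over all genes. Without K700E replicate 1 it was 0.26 against -0.009. In 31 members both K700E libraries lay above both WT libraries (40.8%, against 26.4% of all genes), and in 13 they lay below (17.1%, against 28.2%). The median was 0.12 for MRPL and 0.16 for MRPS symbols.

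Among proteins of the large subunit, MRPL2 (chr6:43054029-43059806, hg38) lies close to the site of peptide bond formation. It had 124 and 124 CPM in K700E libraries and 86.7 and 89.7 CPM in WT libraries, without overlap, a log2 change of 0.51 (SE 0.12, edgeR adjusted p = 0.114). MRPL24 (chr1:156737303-156741590), at the exit tunnel, had 63.1 and 83.1 CPM in K700E and 48.4 and 43.3 CPM in WT libraries. Both K700E libraries were higher, by 0.69 on the log2 scale (SE 0.18, edgeR adjusted p = 0.134). MRPL16, the counterpart of a bacterial protein beside the tRNA sites, had 63.7 and 50.7 CPM in K700E and 44.5 and 29.5 CPM in WT libraries, a log2 change of 0.64 (SE 0.24), again without overlap. MRPL35 had 65 and 61.2 CPM in K700E and 45.8 and 47.2 CPM in WT libraries, a difference wider than the gaps within each group (log2 0.46, SE 0.13). The largest fitted rise belonged to MRPL57, with only 35 and 46 reads in K700E and 25 and 14 reads in WT libraries (log2 0.85, SE 0.65), and that of MRPL46 rested on 3.44 and 4.08 CPM in K700E and 2.34 and 2.59 CPM in WT libraries (0.62, SE 0.29).

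Of the 6 largest falls, 4 carried MRPL symbols. MRPL42 (chr12:93467488-93516213), a protein specific to mitochondria, had 72.9 and 70.3 CPM in K700E and 92.0 and 108 CPM in WT libraries, apart from each other, with a log2 change of -0.46 (SE 0.14, edgeR adjusted p = 0.151). MRPL54 had 12.2 and 11.9 CPM in K700E and 17.7 and 16.7 CPM in WT libraries, a log2 change of -0.50 (SE 0.19), and the groups did not overlap. For MRPL30 the values were 6.80 and 5.82 CPM in K700E and 8.67 and 9.34 CPM in WT libraries, also apart. MRPL36 had 1.30 and 0.942 CPM in K700E and 1.91 and 1.29 CPM in WT libraries, which overlapped. In the small subunit MRPS16, whose human mutation causes a respiratory chain disorder, had 29 and 48.7 CPM in K700E and 47.5 and 58.7 CPM in WT libraries, and MRPS36, since assigned to the oxoglutarate dehydrogenase complex, had 43.7 and 27.6 CPM in K700E and 37.9 and 53.9 CPM in WT libraries. Both overlapped, with log2 changes of -0.43 (SE 0.28) and -0.35 (SE 0.28).

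A single library decided some calls. Without K700E day 4 replicate 1 edgeR called 5 members: MRPL1, MRPL24, MRPS23 and MRPS7 higher and MRPS36 lower, in a fit that called 17.6% of all genes. Without K700E day 4 replicate 2 it called MRPL16 higher and MRPS16 lower (8.55% of all genes), and without either WT library it called none. The sums of the marker lists of other cell types stood apart between the genotypes in the same libraries. ITGA2B, the platelet integrin subunit, had 98.2 and 99.2 CPM in K700E and 11.9 and 21.1 CPM in WT libraries (log2 2.60, SE 0.29, edgeR adjusted p = 0.0418), and the 7 megakaryocyte markers summed to 126 and 124 CPM in K700E and 12.6 and 23.9 CPM in WT libraries. The 5 lymphoid markers summed to 3024 and 2029 CPM in K700E and 1329 and 1565 CPM in WT libraries, with MS4A1 at 0 reads, and the 7 epithelial markers to 688 and 488 CPM in K700E and 868 and 987 CPM in WT libraries; edgeR called 0 genes of either list, with 3 lymphoid ones higher and 3 epithelial ones lower at an unadjusted p under 0.05. None of these sums overlapped between genotypes. Over all genes, both K700E libraries lay above both WT libraries in 26.4% and below them in 28.2%. The K562 sums overlapped, at 1991 and 1388 CPM in K700E and 2192 and 1881 CPM in WT libraries. At day 8 the megakaryocyte sums overlapped too, at 39.5 and 516 CPM (labelled K700E) and 96.1 and 79.6 CPM (labelled WT). Whether these marker differences relate to the member levels was not tested.

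**Figure D3:**
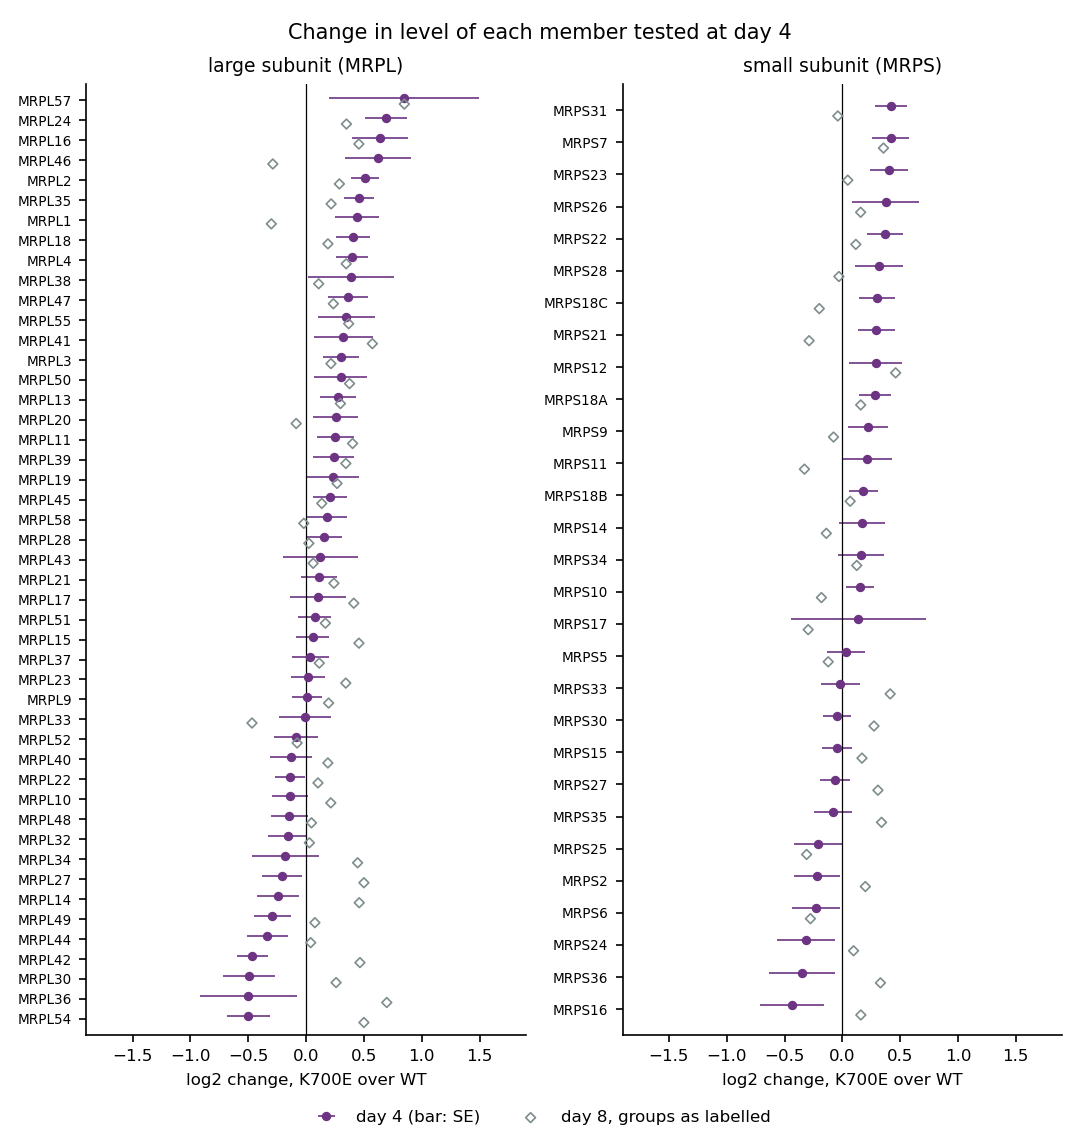
Log2 change, K700E over WT, of each of the 76 members tested at day 4 (filled points, bars are the SE), large-subunit symbols at left and small-subunit symbols at right, with the day 8 change of the libraries as labelled (open diamonds). Of the day 4 points 49 lie above 0, none passed the threshold, and MRPL42 and MRPL54 have day 4 and day 8 points on opposite sides of 0.

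At day 8, as labelled, none of the 77 members tested was called by edgeR or by DESeq2, and none had an unadjusted edgeR p under 0.05; over all genes edgeR called 0.0% and DESeq2 called 0.143%, and 2.92% had such an edgeR p. The median log2 change was 0.17 against 0.01 over all genes, with 58 of 77 members above 0. This lean depended on single libraries. Without the first library labelled WT the median was 0.081 against 0.033 over all genes, with 43 of 77 members above 0. Without the second it was 0.33 against 0.072, with 64 of 77 above 0. Groups stood apart in 28 members higher in the libraries labelled K700E (36.4%, against 19.0% of all genes) and in 5 that were lower (6.49%, against 13.2%). MRPL41, a large-subunit protein also described in apoptosis, had 23.8 and 24.9 CPM in the libraries labelled K700E and 17.1 and 14.9 CPM in those labelled WT, without overlap (log2 0.57, SE 0.24). MRPL57 had 3.29 and 2.57 CPM in the libraries labelled K700E and 1.44 and 1.73 CPM in those labelled WT, and MRPL36 had 3.36 and 2.35 CPM in the libraries labelled K700E and 2.01 and 1.41 CPM in those labelled WT; both were apart. MRPL54 had 22.8 and 17 CPM in the libraries labelled K700E and 12.8 and 14.7 CPM in those labelled WT, the opposite order from day 4.

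The largest falls at day 8 were MRPL53, MRPL33, MRPS11 and MRPS25. MRPL53 rested on 5 and 15 reads in the libraries labelled K700E and 0 and 32 reads in those labelled WT. MRPL33 had 30.2 and 28.1 CPM in the libraries labelled K700E and 44.7 and 33.9 CPM in those labelled WT, apart from each other (log2 -0.47, SE 0.25). MRPS25 had 34.9 and 27.2 CPM in the libraries labelled K700E and 39.5 and 35.5 CPM in those labelled WT, also apart, while MRPS11 overlapped with 24.4 and 22.8 CPM (labelled K700E) and 22.7 and 35.1 CPM (labelled WT).

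Averaged over both days, edgeR and DESeq2 each called 0 of 77 members (0.0% of all genes in edgeR and 0.718% in DESeq2). Unadjusted p-values under 0.05 were found for 7 members, all higher in the libraries labelled K700E (MRPL4, MRPL11, MRPL16, MRPL24, MRPL41, MRPS7 and MRPS12), 9.09% of members against 9.28% of all genes. These averages rest in part on the day 8 libraries, whose labels are in doubt. MRPL50 was the single member whose 4 libraries labelled K700E (7.36, 7.54, 7.26 and 7.36 CPM) all lay above the 4 labelled WT (5.67, 6.55, 4.68 and 6.32 CPM); 0.892% of all genes did so, and no member had the reverse order (0.691% of all genes). Its mean log2 change was 0.35 (SE 0.20, edgeR adjusted p = 0.602). The genotype effect differed between days in 0 members by edgeR or DESeq2 (0.0% of all genes in edgeR and 1.30% in DESeq2). At an unadjusted edgeR p under 0.05 it differed in 3 members (9.2% of all genes): MRPL42 at 0.98 (SE 0.26, edgeR adjusted p = 0.472), MRPL54 at 1.05 (SE 0.32) and MRPL27 at 0.76 (SE 0.28).

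Acceptor use was then compared, since this is the step that the mutation is known to affect. A near-upstream acceptor is defined here as an acceptor 1 to 50 nt upstream of the annotated one that took most reads from the same donor. Across members, 94 such junctions in 48 genes were listed in at least 1 library. Reads at unannotated ones 10 to 30 nt upstream made up 0.12% and 0.0897% of the reads at such acceptors and the annotated main acceptors together in K700E libraries and 0.0392% and 0.0216% in WT libraries at day 4, so both K700E libraries were higher. At day 8 the shares were 0.0258% and 0.101% in the libraries labelled K700E and 0.0359% and 0.142% in those labelled WT. In this narrower window the second replicate of each label stood within or above the range of the K700E libraries of day 4. The first replicate stood within that of the WT libraries, and the labels did not separate. Over all genes the same measure was 0.0572% and 0.0468% (K700E) and 0.0256% and 0.0187% (WT) at day 4, and 0.0204% and 0.0550% (labelled K700E) and 0.0160% and 0.0706% (labelled WT) at day 8. With all near-upstream acceptors of members, annotated ones included, the shares were 0.197% and 0.175% (K700E) and 0.139% and 0.0956% (WT) at day 4. At day 8 they were 0.152% and 0.233% (labelled K700E) and 0.166% and 0.265% (labelled WT). On this wider measure the first replicates stood between the WT and K700E libraries of day 4. In the first library labelled WT at day 8, 5 junctions gave the narrower share.

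Acceptors were called at an adjusted p under 0.05 together with a change of at least 5 percentage points. None of the 304 member acceptors tested at day 4, in 56 genes, was called by edgeR or by limma. Of all acceptors tested, edgeR called 0.467% and limma 0.422%. In limma 41 member acceptors had an unadjusted p under 0.05, for which no share over all acceptors is given. In edgeR, 2 passed the adjusted p alone (0.760% of all acceptors did) and 26 had an unadjusted p under 0.05 (7.02% of all). Both that passed were unannotated near-upstream acceptors, of MRPS27 and MRPS9. Of all 17 near-upstream member acceptors tested none was called, against 6.26% over all genes. Of the 10 unannotated ones, in 8 genes, none was called and 2 passed the adjusted p alone, against 9.8% and 15.4% of the 1184 unannotated acceptors 10 to 30 nt upstream over all genes. All 10 had higher use in K700E, against 80.1% of those 1184, and 6 had an unadjusted p under 0.05, against 47.2%. Since 6 of the 10 had under 5 reads in both WT libraries, and so were tested only because K700E reads were high, these counts are a description and support nothing. The 10 lay 10 to 26 nt upstream, and 5 of the 10 distances were multiples of 3. Where an annotated transcript holds the sequence, it is shown here for the acceptors on which these results turn, 5′ to 3′ on the strand of the gene. Bases come from GENCODE release 29 transcripts in hg38, for MRPS27 and MRPS18C from ones with a retained intron. In the first and second, capitals mark the AG of the upstream and the annotated acceptor. In the third, capitals mark the bases between both acceptors.

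MRPS27, chr5:72228357-72228408, minus strand, a coding exon: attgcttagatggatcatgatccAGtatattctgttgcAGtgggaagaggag
MRPS18C, chr4:83458300-83458357, plus strand, a coding exon: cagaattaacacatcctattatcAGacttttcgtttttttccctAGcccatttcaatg
MRPS22, chr3:139346868-139346889, plus strand, a coding exon: TCCATTTTAGcagaatctggta

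MRPS27, a small-subunit protein that binds RNA, is encoded on chromosome 5. Its upstream acceptor, at 72228384, 15 nt upstream of the annotated one at 72228369, took 43 of 1222 and 55 of 899 reads from its donor in K700E libraries at day 4, or 3.52% and 6.12%. In WT libraries it took 3 of 877 and 1 of 1093 reads, or 0.342% and 0.0915%. Both K700E libraries were above both WT libraries, by 4.60 points; the edgeR adjusted p of 0.00443 is for an acceptor that met the read minimum only through the K700E libraries. The 15 added bases keep the reading frame and hold no stop codon. At day 8 the shares were 0.214% and 2.8% in the libraries labelled K700E and 0 of 504 reads (which allows up to 0.595%) and 6.95% in those labelled WT, so the highest value of all was in a library labelled WT.

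MRPS9, the small-subunit counterpart of a bacterial ribosomal protein, is encoded on chromosome 2 and also has a near-upstream acceptor. That site, 105099648, lying 21 nt before the annotated 105099669, took 34 of 1022 and 24 of 854 reads in K700E libraries at day 4 (3.33% and 2.81%). WT libraries had 0 of 630 and 0 of 813, which allow up to 0.476% and 0.369%. The difference of 3.07 points had an edgeR adjusted p of 0.0116, again for an acceptor that met the minimum only through the K700E libraries. At day 8 the second replicates held 41 of 526 reads (7.79%, labelled K700E) and 52 of 759 (6.85%, labelled WT), while the first replicates held 0 of 313 and 0 of 479. The adjusted p of the MRPS27 and MRPS9 acceptors rose to 0.155 and 0.175 without WT replicate 1, to 0.362 and 0.494 without WT replicate 2, and to 0.183 and 0.138 in limma; without either K700E library the acceptors missed the read minimum.

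The remaining unannotated near-upstream acceptors had changes under 3 points at day 4. In MRPS18C, which encodes a small-subunit protein of bacterial descent, the acceptor at 83458324, 21 nt upstream of 83458345, took 2.99% and 2.88% of reads in K700E libraries and 0.519% and 0% in WT libraries (0 of 792 reads, which allows up to 0.379%). The gap of 2.67 points had an edgeR adjusted p of 0.0794. As the sequence above shows, the reading frame meets a TAG stop after 18 of the 21 added bases. MRPS22, a small-subunit protein specific to mitochondria, had 2.24% and 1.25% in K700E and 0.257% and 0% in WT libraries at an acceptor 10 nt upstream (edgeR adjusted p = 0.0718). Its 10 added bases shift the frame, and a TAG follows 20 bases after the upstream acceptor. In both genes the K700E libraries were above the WT libraries, and both acceptors met the read minimum only through the K700E libraries. With a minimum of 10 reads per junction and 50 per site, likewise met only there, the adjusted p-values were 0.0391 and 0.0300.

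MRPS10 had 2.15% and 1.87% in K700E and 0.264% and 0.678% in WT libraries at an acceptor 22 nt upstream. MRPS30 had 2.76% and 1.42% in K700E and 0.494% and 0.700% in WT libraries at an acceptor 18 nt upstream. MRPL40 had 2.75% and 1.79% in K700E and 1.36% and 0.632% in WT libraries at an acceptor 11 nt upstream. The K700E and WT values of these 3 did not overlap, but the acceptors were picked by their day 4 change. No share over all acceptors is given for lack of overlap, so it is a description only. Their edgeR adjusted p-values were 0.106, 0.148 and 0.741. At day 8 the second replicates were higher than the first within both labels in 9 of the 10 acceptors. The exception was a second acceptor of MRPS18C, 15 nt upstream of its own annotated partner, which was highest in the first library labelled WT at day 8 (31 of 1150 reads, 2.7%).

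**Figure D4:**
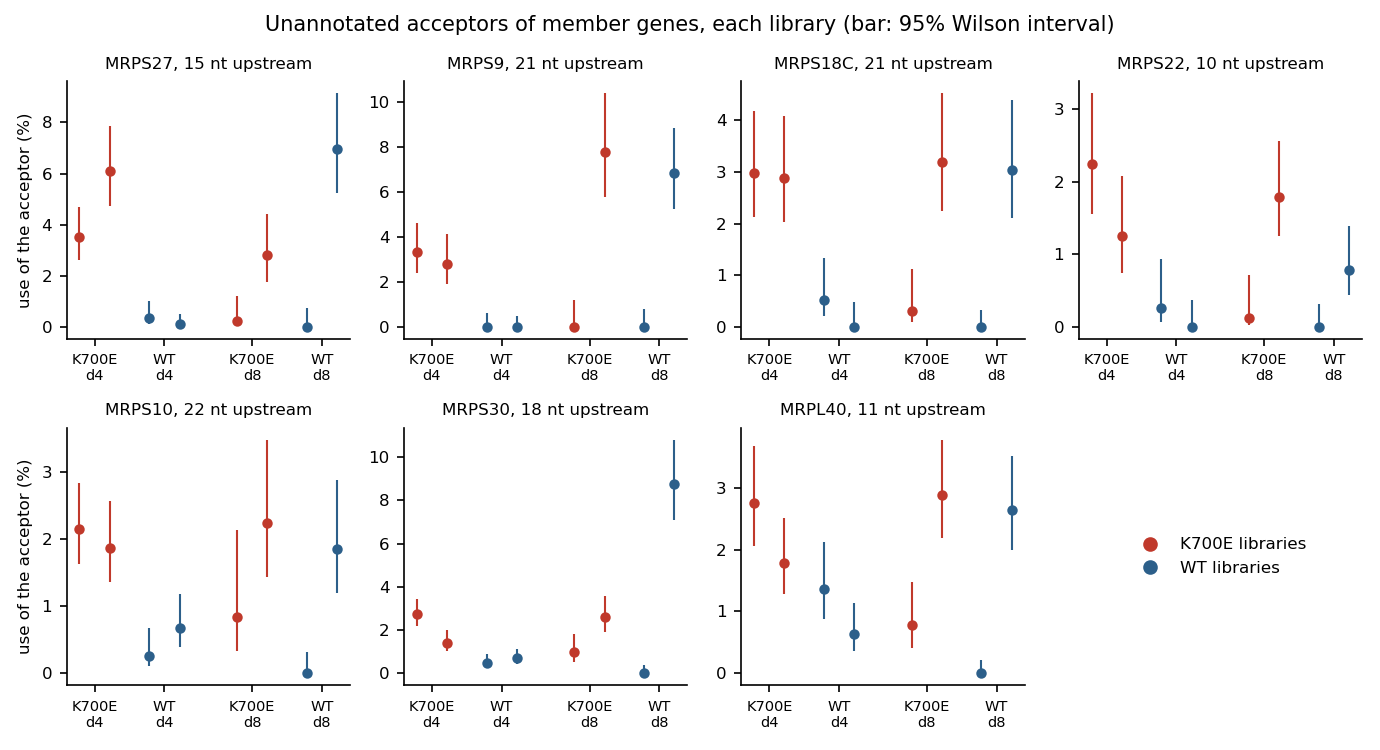
Use of 7 unannotated near-upstream acceptors in each library, as a percent of reads from the same donor, with 95% Wilson intervals that cover counting error only (red K700E labels, blue WT labels; replicate 1 left of replicate 2). The acceptors were picked by their day 4 change, and those of MRPS27, MRPS9, MRPS18C and MRPS22 met the read minimum only through K700E libraries. That the K700E points lie above the WT points at day 4 (MRPS27: 3.52% and 6.12% against 0.342% and 0.0915%) is therefore no test. Of the unannotated ones tested but not drawn, a second one of MRPS18C overlapped (0.681% and 0.381% in K700E, 0.988% and 0% in WT libraries). Those of MRPL3 and a second one of MRPS10 did not, and both of these met the read minimum only through K700E libraries. At day 8 the high points are the second replicates of both labels.

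The genes that carry these 7 acceptors showed no called change in level. At day 4 MRPS27 had a log2 change of -0.07 (SE 0.13), MRPS9 of 0.22 (SE 0.17), MRPS18C of 0.30 (SE 0.15), MRPS22 of 0.37 (SE 0.16), MRPS10 of 0.15 (SE 0.12), MRPS30 of -0.05 (SE 0.12) and MRPL40 of -0.13 (SE 0.18), each short of the threshold in edgeR.

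Of the 7 annotated near-upstream acceptors tested, those of MRPL22, MRPL58, MRPS16 and MRPS34 had differences of -1.26 to 0.86 points. In the 5′ UTR of MRPL42 the acceptor at 93469188, which adds the 3 bases in capitals to the exon start on chromosome 12, took 27.8% and 26.7% of reads in K700E and 22.9% and 18.3% in WT libraries, apart from each other but with an edgeR adjusted p of 1.0. At day 8 it took 30.6% and 36.3% in the libraries labelled K700E and 16.0% and 32.5% in those labelled WT. In MRPL55 an acceptor 3 nt upstream, also in the 5′ UTR, took 4.76% and 24.7% in K700E and 4.72% and 4.63% in WT libraries, a gap of 10.0 points that rested on 1 library.

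MRPL42, chr12:93469189-93469203, plus strand: CAGgagtagaaattg

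Other acceptors with the largest day 4 changes were in MRPS25, MRPS28, MRPL55, MRPS6, MRPL52, MRPS18C and MRPS22, and none passed. In MRPS6, on chromosome 21, the acceptor at 34094862 took 31.3% and 32.5% of reads from its donor in K700E libraries and 48.1% and 45.8% in WT libraries, a change of -15.03 points without overlap (edgeR adjusted p = 0.799). In MRPS18C the junction to 83459739, which passes over the exon described above, took 23.6% and 24.3% in K700E and 30.9% and 32.4% in WT libraries, again apart. In MRPS25 the acceptor at 15047306 took 13 of 65 and 6 of 57 reads in K700E and 26 of 48 and 12 of 37 reads in WT libraries, with lower shares in both K700E libraries (edgeR adjusted p = 0.499). MRPL1 fell outside this ranking and was picked after its values were seen: its acceptor at 77906945 took 1.72% and 1.03% in K700E and 7.89% and 7.42% in WT libraries, and was called under the stricter read minimum only (adjusted p = 0.0980 with the main minimum).

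At day 8 none of 288 member acceptors was called by edgeR or limma (0.0% of all; 12 at an unadjusted edgeR p under 0.05, against 2.79% of all). Over both days none of 388 was called by either tool, for the mean (0.0% of all; 21 at an unadjusted edgeR p under 0.05, against 5.38% of all) or for the difference between days (0.0% of all; 27 at such a p, against 5.93% of all). Without the second library labelled WT at day 8, some member acceptors passed the adjusted p for the mean, none of them by 5 points. That fit leaves 1 library in its group, and the share of all acceptors at the same rule is not given. Donor use was called by edgeR or limma in 0 of 298 member donors at day 4 (0.0309% of all; 16 at an unadjusted edgeR p under 0.05, against 5.65% of all) and in 0 of 323 at day 8 (0.0% of all; 12 at such a p, against 2.78% of all).

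Other genes of mitochondrial translation were set beside the members. At day 4 edgeR called none in any of 6 lists. Genes at an unadjusted p under 0.05 were 1 higher and 1 lower of 5 mitoribosomal proteins under other symbols, 2 higher and 1 lower of 25 assembly and rRNA-modifying factors, 4 higher and 0 lower of 19 translation factors, 5 higher and 1 lower of 21 aminoacyl-tRNA synthetases, 8 higher and 1 lower of 22 factors of mitochondrial transcription and RNA processing, and 1 higher and 3 lower of 11 regulators, where 21.3% of all genes had such a p. ELAC2, which trims the 3′ ends of tRNAs, had 191 and 256 CPM in K700E and 127 and 130 CPM in WT libraries, without overlap (log2 0.81, SE 0.18, edgeR adjusted p = 0.107). CHCHD1, a small-subunit protein outside the MRPS symbols, had 11.7 and 16.1 CPM in K700E and 22.9 and 20.7 CPM in WT libraries, lower in both (log2 -0.63, SE 0.23). ATF5, a transcription factor of the mitochondrial stress response, had 8.56 and 3.22 CPM in K700E and 35.5 and 31.0 CPM in WT libraries, far lower in both (log2 -2.48, SE 0.47, edgeR adjusted p = 0.0887). The cytosolic ribosomal proteins leaned the other way from the members: 4 of 82 were above 0 (51.4% of all genes were), with a median of -0.30. EdgeR called 0 of them, with 41 lower at an unadjusted p under 0.05. RPL14 had 1120 and 1504 CPM in K700E and 2365 and 2885 CPM in WT libraries, without overlap. That difference between both kinds of ribosomal protein was not tested. At day 8, as labelled, 43 of 81 cytosolic ones were above 0, with a median of 0.03.

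The clearest differences among members were between days, a comparison added after the values per library had been seen. With both genotypes, 40 of 77 members passed an adjusted p of 0.05 in edgeR between day 8 and day 4 (51.9%, against 36.0% of all genes), 21 higher on day 8 (27.3%, against 18.1%) and 19 lower (24.7%, against 18%). All day 8 libraries lay above all day 4 libraries in 23 members (29.9%, against 17.4% of all genes) and below them in 18 (23.4%, against 17.7%). The count of calls was 24 without WT day 4 replicate 2 (18.3% of all genes), 18 within the K700E libraries (14.7% of all genes) and 14 within the WT libraries (13.6% of all genes).

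Members higher on day 8 were led by MRPL41 (chr9:137551199-137552555). It had 23.8, 24.9, 17.1 and 14.9 CPM in the 4 day 8 libraries (labelled K700E, K700E, WT and WT) and 4.55, 4.40, 3.44 and 3.80 CPM in the 4 day 4 libraries in the same order of labels. Every day 8 library was above every day 4 library (log2 2.29, SE 0.16, edgeR adjusted p = 0.000674). MRPS12 (chr19:38930548-38933162), a protein of the decoding centre, had 19.1, 21.0, 13.3 and 15.2 CPM on day 8 and 6.58, 6.49, 5.12 and 5.71 CPM on day 4, also apart (log2 1.5). MRPL4, at the exit tunnel for the new peptide, had 99.7, 97.4, 61.2 and 90.2 CPM on day 8 and 50.2, 50.5, 37.2 and 40.2 CPM on day 4 (log2 0.97). The other members with MRPL symbols called higher were MRPL57 (2.21), MRPL38 (1.79), MRPL17 (1.46), MRPL52 (1.36), MRPL55 (1.33), MRPL34 (1.32), MRPL46 (1.07), MRPL43 (0.89), MRPL14 (0.60), MRPL20 (0.55), MRPL28 (0.49) and MRPL23 (0.47). Those with MRPS symbols were MRPS17 (1.65), MRPS26 (1.61), MRPS34 (1.32), MRPS2 (0.98), MRPS24 (0.72) and MRPS28 (0.53).

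Among members lower on day 8, MRPL42 had 40.8, 36.0, 24.0 and 30.2 CPM on day 8 and 72.9, 70.3, 92.0 and 108 CPM on day 4. The days did not overlap (log2 -1.39, SE 0.13, edgeR adjusted p = 0.000948). MRPS9 had 64.0, 77.4, 51.9 and 93.8 CPM on day 8 and 144, 173, 121 and 153 CPM on day 4, again apart (log2 -1.04, SE 0.21). MRPS35 had 99.0, 116, 65.9 and 99.9 CPM on day 8 and 194, 180, 173 and 228 CPM on day 4, with the same log2 change of -1.04. Further members with MRPS symbols called lower were MRPS5 (-0.87), MRPS10 (-0.83), MRPS30 (-0.79), MRPS18B (-0.71), MRPS31 (-0.71) and MRPS27 (-0.69). Those with MRPL symbols were MRPL13 (-0.82), MRPL39 (-0.71), MRPL44 (-0.70), MRPL22 (-0.63), MRPL48 (-0.62), MRPL45 (-0.62), MRPL47 (-0.60), MRPL16 (-0.57), MRPL3 (-0.52) and MRPL37 (-0.50).

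In the other lists edgeR calls between days are given as higher and lower on day 8, of the genes tested. Over all genes 36.0% were called in either direction. The calls were 2 and 2 of 5 mitoribosomal proteins under other symbols and 5 and 3 of 25 assembly factors. They were 3 and 6 of 19 translation factors, 3 and 8 of 21 synthetases, and 5 and 7 of 22 transcription and processing factors. The regulators had 4 and 5 of 11, and the cytosolic ribosomal proteins 5 and 8 of 82.

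Base composition and gene structure went with this change. The principal transcripts of the 21 members called higher had a median GC content of 60.3% and a median of 3 introns, those of the 19 called lower 44.9% and 6 introns, and those of the 37 not called 48.9% and 3 introns. Across the 77 members the log2 change between days had a Spearman correlation of 0.62 with GC content and -0.55 with the number of introns, given as a description since all points share the same 8 libraries. With GC content pooled over a gene's transcripts, the correlation was 0.66 for the members and 0.55 over all 14902 genes tested, and the median GC content of called genes was 58.8% (higher) and 42.4% (lower) over all genes. The K700E over WT change at day 4 had a Spearman correlation of -0.03 with GC content over 76 members. At day 8, as labelled, that correlation was 0.19 over 77 members. With pooled GC content it was 0.18 for the members and 0.21 over all 13990 genes tested at day 8. Markers also moved with day: the epithelial list summed to 1019 to 2608 CPM in the 4 day 8 libraries and 488 to 987 CPM in the 4 day 4 libraries, without overlap. Between days edgeR called 2 epithelial markers higher and 1 lower of 5 tested, 2 K562 markers higher and 4 lower of 11, 0 of 4 megakaryocyte markers (1 at an unadjusted p under 0.05) and 1 lymphoid marker lower of 4. Over all genes 36.0% were called, and 17.4% had all day 8 libraries above all day 4 libraries. Whether these marker changes relate to the change of the members between days was not tested. The labels give no batch, so day and library preparation cannot be told apart.

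**Figure D5:**
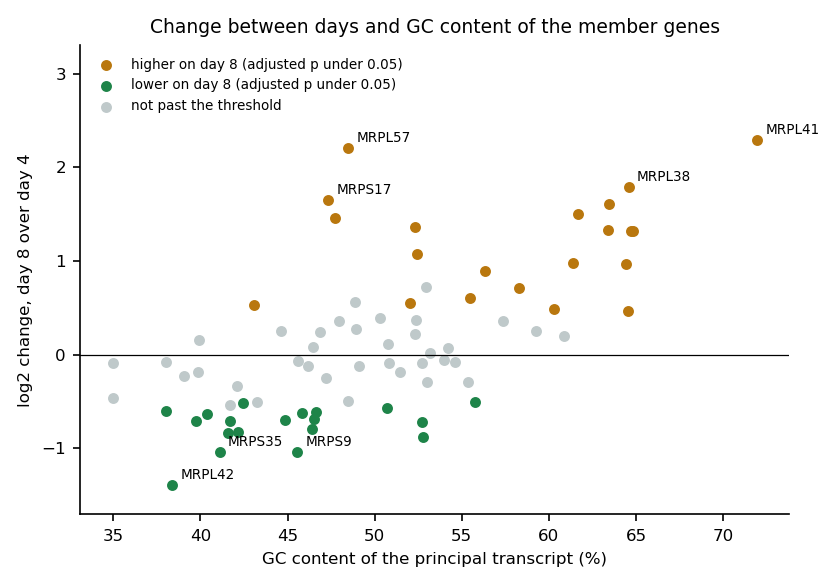
Log2 change, day 8 over day 4, of the 77 members tested against the GC content of their principal transcript; orange points are higher and green points lower on day 8 at an adjusted p under 0.05 in edgeR. MRPL41 lies at the upper right with a change of 2.29 and MRPL42 at the lower left with -1.39, while MRPL57 and MRPS17 are high at GC contents below 50%.

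Promoters of the members share short motifs. RefSeq windows in GRCh38.p14, 250 bases before to 50 after each start, were held for 69 members (85 windows). They were searched on both strands for CCGGAAG (ETS factors such as GABPA), AAGATGG (YY1), TGCGCA (NRF1) and GGGCGG (SP1), and 5 windows had overlapping matches. CCGGAAG was in 38.8% of member windows and 10.3% of all 35116 windows, AAGATGG in 31.8% and 5.84%, TGCGCA in 17 of the 85 member windows and 8.24% of all, and GGGCGG in 51 of the 85 and 45% of all. None of the 4 was found in 9 member windows, against 46.5% of all windows. Median GC content was 60.3% in member windows and 58.7% in all. A match is a description and says nothing of binding. MRPS12, called higher on day 8, and MRPS10, called lower, are shown because both windows hold the ETS, YY1 and SP1 motifs or their reverse complements, in capitals.

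MRPS12, chr19:38930694-38930993, plus strand: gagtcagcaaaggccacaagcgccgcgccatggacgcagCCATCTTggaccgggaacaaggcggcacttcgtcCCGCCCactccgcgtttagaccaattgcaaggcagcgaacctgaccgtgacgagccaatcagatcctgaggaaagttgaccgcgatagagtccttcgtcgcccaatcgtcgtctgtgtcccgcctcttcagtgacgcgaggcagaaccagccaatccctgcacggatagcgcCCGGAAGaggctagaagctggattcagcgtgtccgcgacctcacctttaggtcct
MRPS10, chr6:42217812-42218111, minus strand: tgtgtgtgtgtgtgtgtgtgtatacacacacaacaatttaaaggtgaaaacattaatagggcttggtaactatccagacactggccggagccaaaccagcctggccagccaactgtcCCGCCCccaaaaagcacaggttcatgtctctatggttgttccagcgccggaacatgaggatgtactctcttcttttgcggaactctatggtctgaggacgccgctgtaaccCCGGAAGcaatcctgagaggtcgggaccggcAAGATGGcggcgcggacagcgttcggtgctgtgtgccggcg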

How the data were processed

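RNA of 8 K562 libraries was trimmed with cutadapt and aligned to hg38 with STAR, per the submitters' processing notes; STAR was version 2.7.0e with GENCODE releases 29 and 22, per the file headers. The authors deposited raw counts of uniquely and multiply mapped reads per splice junction; no normalization was applied before deposit. Unique counts over annotated introns of a single gene on its strand were summed per gene; 4.17% of reads fell in introns of 2 genes and were left out. Groups and replicate numbers come from the labels. Gene counts were tested with edgeR 4.0.16 (quasi-likelihood, TMM, filterByExpr) and acceptor and donor counts with its diffSpliceDGE, each over all features with Benjamini-Hochberg adjustment. Junctions needed 5 reads in 2 libraries, and sites 2 junctions and a mean of 20 reads. Scripts were tested on simulated data. There, at an adjusted p under 0.05, the gene test recovered 30.3% of 2-fold changes at day 4 and 9.28% at day 8. The acceptor test recovered 32% of 4-fold changes at day 4 and 4% at day 8. A result of 0 called therefore does not show that nothing changed. Alternatives were DESeq2 1.42.0, limma 3.58.1, other filters, multi-mapped reads, introns of 2 genes, a replicate block and each library left out. The members, lists and tests were chosen with earlier results of these data known. Named members are those called in any comparison, the 6 largest rises and falls at day 4, the 4 at day 8, the largest changes in acceptor use (10 near-upstream, 10 others) and the 4 highest and 4 lowest levels. Intervals and limits for 0 reads (3 reads of the total) cover counting error only, with reads taken as independent.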

Additional observations from a re-analysis of the deposited data

How the results depend on the processing

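Member calls at day 4 depended on the test and on single libraries. Against 0 calls of gene level, DESeq2 called 3 members (1640 genes in all, against 74), no filter on low counts 1 (1567 genes) and leaving out a library 0 to 5; the cause was not tested. Without K700E replicate 1 or 2 at day 4 all calls rose to 2536 and 1255, and without either WT library they fell to 0. With the stricter read minimum 1 member acceptor was called at day 4, against 0 (1.05% of all acceptors). Between days, the 40 calls became 18 in K700E libraries only, 14 in WT libraries only and 24 to 40 with a library left out. With the replicate number as a block, 0 members were called at day 4 (126 genes in all, against 74), 0 at day 8 and 40 between days. The numbers are only shared: deviations of same-numbered libraries correlated at 0.096 at day 4 and 0.246 at day 8 over 14902 genes, with 2 pairs each. Some values that had passed no test changed sign. MRPL53 at day 8 became 0.27 with introns of 2 genes counted, 1.02 with the replicate block and -1.56 to 6.41 with a library left out, the highest without the second library labelled WT, since the other WT library has 0 reads. MRPS11 at day 8 ranged from -0.60 to 0.019 with a library left out. At day 4 the MRPL55 acceptor at 228108322 from the donor at 228108954 ranged from -3.33 to 8.49 points, and the MRPS22 acceptor at 139346880 from -4.66 to 19.6 points. Without the second library labelled WT at day 8 the median of all genes moved to 0.18 in the difference between days and to -0.13 in day 8 against day 4. In the fit of all 8 libraries the adjusted p of the MRPS27 and MRPS9 acceptors at day 4 was 1.0. All summed levels kept their direction, from 0.04 to 0.23 at day 4 and 0.05 to 0.34 at day 8. A left-out library leaves its group with 1 sample, which is assumed to vary like the others. Depth limits members with few spliced reads, above all MRPL53, MRPL57 and MRPS17.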
